A study of Mus musculus with 6 samples.

Results

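The genes described here are the collagens and laminins, the chains that build the fibrils and sheets of the extracellular matrix. They were taken from the gene table by symbol (Col, a number, a and a digit, or Lama, Lamb or Lamc and a digit), with the most abundant entry of a symbol used where it had several. This gave 54 members, 43 collagens and 11 laminins, of 34433 genes with a symbol in 41945 entries. By structure, 19 are basement membrane chains (collagen IV, collagens XV and XVIII, and the laminins), 11 are fibrillar collagens and 24 are neither. The grouping rests on what the chains are known to form and used no measured value.

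RNA was sequenced from motor neurons (MNs) made from 2 mouse embryonic stem cell (mESC) lines of the FVB/N background, with 3 samples per line. The Hb9 control line is given as wildtype in the labels, and the study's methods describe it as SMN2+/+;mSmn+/+. The A2 line is the model of spinal muscular atrophy (SMA), with the human SMN2 transgene on a background that lacks mouse Smn1 (SMN2+/+;mSmn-/-). Both lines carry eGFP under the Hb9 promoter, so the sort selected cells in which that promoter was active. Embryoid bodies of both lines were treated for 5 days with 1 µM retinoic acid and 1 µM Smoothened agonist, and living eGFP-positive cells were collected by FACS. The mESCs had been grown on mouse embryonic fibroblasts, which were left to re-attach to a flask before differentiation. Each genotype is a single line, so genotype and line cannot be told apart.

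The gene table holds 1 value per genotype, in FPKM (fragments scaled to transcript length and to the size of the library), in which the 3 samples were combined. The spread between samples and the number of reads behind a value are unknown, the results of Cuffdiff's own test were not used, and every comparison below is a description of those 2 values. A log2 ratio is that of FPKM in A2 SMA MNs over FPKM in Hb9 control MNs. Ratios are given for genes that reached 1 FPKM in one or both genotypes and were not at 0 in any, and a gene is counted as lower or higher at a ratio of 2-fold or more unless another limit is named. A gene under 1 FPKM in one genotype passed only through the other, where it was higher, which limits the counts of every class and list.

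Basement membranes are thin sheets that underlie epithelia and surround muscle, vessels and the neural tube. A laminin network of alpha, beta and gamma chains attaches to cells through integrins and dystroglycan, and a collagen IV network is linked to it by nidogen and perlecan. Fibrillar collagens assemble instead into the cross-striated fibrils of connective tissue, while FACIT collagens (fibril-associated collagens with interrupted triple helices) decorate those fibrils. Developing MNs lie inside the neural tube, whose outer surface is covered by a basement membrane, and Schwann cells and muscle fibres later surround MN axons and endings with another.

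The split between the classes can be read in their coding sequence, in which the triple helix is a repeat of glycine followed by 2 other residues (Gly-X-Y). In the GENCODE M21 coding sequences, found for all 54 members, the longest unbroken run of such triplets was 216 to 344 triplets in the 11 fibrillar chains (median 338). In the 6 collagen IV chains it was 39 to 66 triplets (median 43.5), and each of these chains held 22 to 27 separate runs of at least 5 triplets against 2 to 3 in the fibrillar chains. The collagens XV and XVIII both had a longest run of 30 triplets, and no laminin had a run. Coding bases 502 to 591 of Col1a1, at the start of its long helix, and coding bases 451 to 540 of Col4a1, where its first and second run meet, are shown to make this difference visible. Capitals mark the glycine codons that open a triplet of a run.
Col1a1: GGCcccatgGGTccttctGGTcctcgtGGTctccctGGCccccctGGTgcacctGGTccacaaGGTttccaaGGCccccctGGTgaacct
Col4a1: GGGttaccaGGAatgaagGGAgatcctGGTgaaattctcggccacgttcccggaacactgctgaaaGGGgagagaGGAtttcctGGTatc
In Col1a1 a glycine codon and 2 other codons alternated through the whole stretch. In Col4a1 the run of 40 triplets stopped, 10 residues without the repeat followed, and a run of 17 triplets began.

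The promoters of Col4a1 and Col4a2, the chains of the common collagen IV trimer, are shown because both genes are transcribed from one short stretch in opposite directions. RefSeq (GRCm38.p6) has the start of Col4a1 on the minus strand and that of Col4a2 on the plus strand, 21 bp apart. The windows below run from 250 bases before to 50 bases after each start, at chr8:11312777-11313076 for Col4a1 and chr8:11312555-11312854 for Col4a2, both written 5′ to 3′ on the strand of the gene. Capitals mark the 78 bases that the windows share, as reverse complements.
Col4a1: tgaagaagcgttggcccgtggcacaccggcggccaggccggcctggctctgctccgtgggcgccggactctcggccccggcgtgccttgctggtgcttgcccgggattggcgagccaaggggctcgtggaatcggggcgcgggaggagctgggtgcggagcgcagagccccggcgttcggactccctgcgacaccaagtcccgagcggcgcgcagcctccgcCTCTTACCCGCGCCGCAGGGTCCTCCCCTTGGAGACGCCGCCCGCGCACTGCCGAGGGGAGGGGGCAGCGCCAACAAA
Col4a2: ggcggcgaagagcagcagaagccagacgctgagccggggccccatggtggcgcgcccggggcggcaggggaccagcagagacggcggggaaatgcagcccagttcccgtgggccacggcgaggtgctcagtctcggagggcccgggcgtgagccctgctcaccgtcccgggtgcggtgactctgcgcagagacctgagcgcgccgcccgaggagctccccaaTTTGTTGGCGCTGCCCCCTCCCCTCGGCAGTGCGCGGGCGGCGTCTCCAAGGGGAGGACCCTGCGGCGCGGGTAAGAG
The Col4a1 window held 37 CpG and the Col4a2 window 33 CpG, against a median of 7 CpG over 32851 RefSeq windows of the same length. Counting both strands, the GC box GGGCGG occurred 1 time in the Col4a1 window and 3 times in the Col4a2 window, and it was present in 35.66% of all windows. The CCAAT box occurred 1 time in each and was present in 37.41% of all windows. The TATA box TATAAA was in neither and was present in 13.62% of all windows. These matches describe the letters of the windows and are not measured binding sites.

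Smn1, the gene targeted in A2, was at 137 FPKM in Hb9 MNs and at 5.26 FPKM in A2 MNs, a log2 ratio of -4.70. Over the 14926 genes that passed the filter, the log2 ratio had a median of -0.29 and quartiles of -0.89 and 0.19. By any amount, 65.9% of them had less transcript in A2 MNs. Of these genes, 22.4% were at least 2-fold lower and 6.83% at least 2-fold higher. With ratios taken relative to the median gene, 16.5% were at least 2-fold lower and 10.4% at least 2-fold higher. These shares are the background against which the counts of collagens and laminins are given.

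The marker genes of the sorted cells also differed between the genotypes. Their counts stand beside 22.4% of all genes at least 2-fold lower and 6.83% at least 2-fold higher. Of 9 MN markers, 7 passed the filter and 6 were at least 2-fold lower in A2 SMA MNs, with a summed level of 296 against 56.1 FPKM. Mnx1, which encodes Hb9, was at 41.2 against 44.2 FPKM, whereas Isl1 was at 108 against 5.95 FPKM and Lhx3 at 27.6 against 0.348 FPKM. All 8 measured pan-neuronal markers were at least 2-fold lower (1059 against 122 FPKM in sum), as were 7 of 8 markers of neural progenitors and radial glia (2283 against 224 FPKM) and 5 of 6 of floor plate and notochord (716 against 106 FPKM). Of the 10 pluripotency markers, 9 were at least 2-fold higher (299 against 1874 FPKM), with Pou5f1 at 98.3 against 775 FPKM. The 5 measured markers of simple epithelium and trophectoderm were all at least 2-fold higher (109 against 252 FPKM), with Cdh1 at 39.7 against 99.3 FPKM. Of 8 measured fibroblast markers 3 were at least 2-fold lower and 1 higher (31.7 against 22.6 FPKM), and of 11 endoderm markers 3 were lower and 1 higher (190 against 81.3 FPKM, or 85.0 against 74.0 FPKM without Cxcr4). The sums were 106 against 161 FPKM for endothelial markers, 22.7 against 17.9 FPKM for neural crest and Schwann cells and 26.7 against 29.7 FPKM for muscle. S100a4, one of the fibroblast markers, was listed at 0 FPKM in A2 SMA MNs. In bulk RNA, fewer cells of a type and less RNA per cell cannot be told apart, and the part of these marker differences in the values below was not tested.

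Most of the measured collagens and laminins, like most genes, had less transcript in A2 SMA MNs. The 54 members summed to 1279 FPKM in Hb9 MNs against 780 FPKM in A2 SMA MNs. Of the 39 members that passed the filter, 29 were lower and 10 higher by any amount, where 65.9% of all genes were lower. The median log2 ratio of the 39 was -0.82 beside -0.29 for all genes. At least 2-fold lower were 18 of the 39, where 22.4% of all genes were, and at least 2-fold higher were 5, where 6.83% of all genes were. Of the 5, 3 (Lamb3, Col5a3 and Col6a5) were under 1 FPKM in Hb9 MNs and passed the filter only through A2 MNs, so that nothing is read from this count. Of the 18, 4 (Col12a1, Col20a1, Col24a1 and Col27a1) were under 1 FPKM in A2 MNs and passed only through Hb9 MNs. Relative to the median gene the counts were 13 lower (16.5% of all genes) and 5 higher (10.4% of all genes), with a median of -0.53. The other 15 members were under 1 FPKM in both genotypes and none was listed at 0. They were Col4a3, Col4a4, Col4a6, Col6a4, Col6a6, Col8a1, Col9a1, Col10a1, Col14a1, Col15a1, Col19a1, Col25a1, Col28a1, Lama2 and Lamc3.

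**Figure D1:**
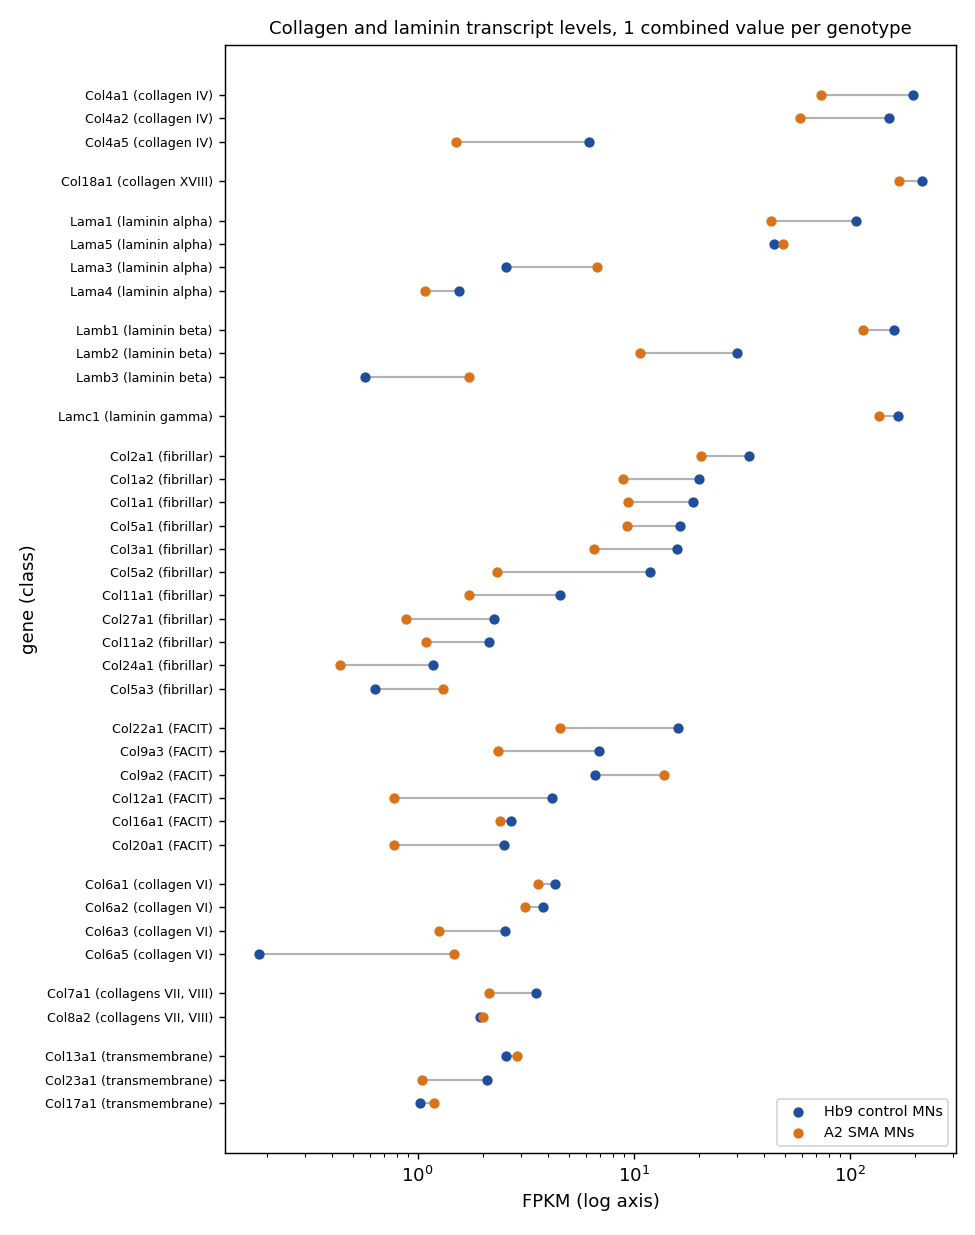
Level of 38 of the 39 collagens and laminins that passed the filter, as FPKM on a log axis, with 1 blue point for Hb9 control MNs and 1 orange point for A2 SMA MNs joined by a grey line. Each point is 1 combined value with no error, and the basement membrane chains at the top reach 217 FPKM while no fibrillar chain exceeds 34.0 FPKM.

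Among collagen and laminin transcripts, those of basement membranes prevailed in both genotypes. The 19 basement membrane chains made up 85.0% of the summed collagen and laminin FPKM in Hb9 control MNs (1087 of 1279 FPKM) and 86.1% in A2 SMA MNs (671 of 780 FPKM). The 11 fibrillar chains made up 9.9996% and 8.01%, and the 24 others 5.02% and 5.90%. Within the basement membrane chains, collagen IV took 27.7% of the whole sum in Hb9 control MNs and 17.3% in A2 SMA MNs, whereas the laminins took 40.3% and 47.1%.

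Collagen IV, the network-forming collagen of every basement membrane, was 2.63-fold lower in A2 SMA MNs in sum (354 against 134.6 FPKM). Col4a1 was at 195 FPKM in Hb9 MNs and 73.8 FPKM in A2 MNs (log2 ratio -1.40), and Col4a2 at 152 and 59.0 FPKM (-1.36). The ratio of Col4a1 to Col4a2 was 1.29 in Hb9 MNs and 1.25 in A2 SMA MNs. In the protein, 2 Col4a1 chains join 1 Col4a2 chain. The table places both genes in one locus, chr8:11187754-11449287 of NCBI m37, around the shared promoter shown above. Col4a5, the chain whose loss causes Alport syndrome, was at 6.21 and 1.51 FPKM (-2.04). Its head-to-head neighbour Col4a6, whose RefSeq start lies 1343 bp away, was just under the filter at 0.980 and 0.210 FPKM. The remaining Alport chains, Col4a3 and Col4a4, did not exceed 0.0625 FPKM in either genotype.

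Collagen XVIII, a heparan sulfate collagen of basement membranes whose C-terminal end is endostatin, was the most abundant member in both genotypes. Col18a1 was at 217 FPKM in Hb9 MNs and 169 FPKM in A2 MNs, a log2 ratio of -0.36, or -0.07 relative to the median gene. As Col4a1 differed more, the ratio of Col18a1 to Col4a1 was 1.11 in Hb9 control MNs and 2.29 in A2 SMA MNs. Col15a1, the other collagen of this kind, was at 0.321 and 0.386 FPKM.

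The laminins differed chain by chain, and their sum was 1.40-fold lower in A2 SMA MNs (516 against 367 FPKM). The common beta and gamma chains were near the median gene. Lamc1, the gamma chain of most laminins, was at 168 and 136 FPKM (log2 ratio -0.30), and Lamb1 at 160 and 115 FPKM (-0.47), so that Lamb1 to Lamc1 was 0.953 in Hb9 control MNs and 0.844 in A2 SMA MNs. Lamb2, the beta chain known from synaptic basement membranes such as that of the neuromuscular junction, was at 30.2 and 10.7 FPKM (-1.49). Its share of the summed beta chains was 15.8% in Hb9 control MNs and 8.40% in A2 SMA MNs, while that of Lamb1 was 83.9% and 90.2%.

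The alpha chains, which carry the cell-binding end of the molecule, differed more in composition than the beta chains. Lama1, the alpha chain of early embryonic laminin, was at 107 FPKM in Hb9 MNs and 43.2 FPKM in A2 SMA MNs (log2 ratio -1.30). Lama5 was at 44.4 and 49.2 FPKM (0.15), so Lama1 exceeded Lama5 by 2.40-fold in Hb9 control MNs and was 1.14-fold below it in A2 SMA MNs. Of the summed alpha-chain FPKM (155 and 100.4), Lama1 took 68.6% and 43.1% and Lama5 28.6% and 49.0%. Lama4, the alpha chain of vessel walls, was at 1.55 and 1.08 FPKM (-0.52), and Lama2, the alpha chain of muscle and Schwann cell basement membranes, at 0.234 and 0.132 FPKM. The locus of Lama1 is chr17:68046585-68171985 and that of Lama5 chr2:179911077-179960564, both as the table gives them on NCBI m37. Cuffdiff marked the entries of Lama1, Lamc1 and, among the fibrillar chains, Col1a1 as FAIL, which means that it could not complete its own comparison there, although it gave FPKM values.

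Lama3 and Lamb3, chains of epithelial laminins, were higher in A2 SMA MNs but low in both genotypes. Lama3 was at 2.56 FPKM in Hb9 MNs and 6.77 FPKM in A2 SMA MNs (log2 ratio 1.40), and Lamb3 at 0.571 and 1.74 FPKM (1.61). Lama3 and Lamb3 were the basement membrane members that were at least 2-fold higher. Itgb4, which encodes the beta subunit of an epithelial laminin receptor, was at 4.59 and 7.04 FPKM and was named after its value was seen. Itga6, a laminin-binding subunit, was at 108 and 98.5 FPKM (-0.13, or 0.16 relative to the median gene). The epithelial markers (109 against 252 FPKM in sum) and the pluripotency markers (299 against 1874 FPKM in sum) were higher in A2 SMA MNs as well. The part of these markers in the laminin values was not tested.

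**Figure D2:**
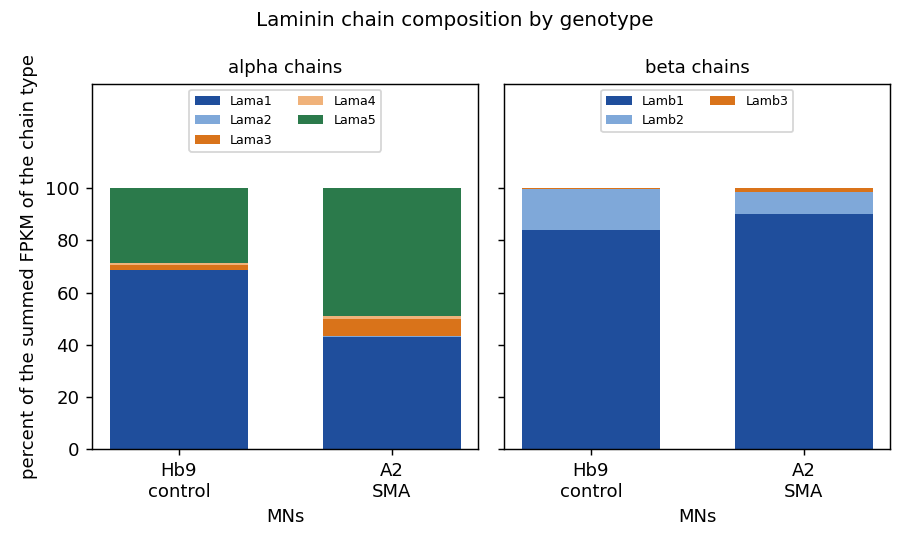
Share of each chain in the summed FPKM of the laminin alpha and beta chains, in percent, with 1 stacked bar per genotype and no error because each genotype has 1 value. Lama1 takes 68.6% of the alpha chains in Hb9 control MNs and 43.1% in A2 SMA MNs, while Lamb1 is the main beta chain in both.

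All 11 fibrillar collagens passed the filter, and 10 of them were lower in A2 SMA MNs by any amount, where 65.9% of all genes were. At least 2-fold lower were 7 of the 11 (22.4% of all genes) and at least 2-fold higher was 1 (6.83% of all genes), with a median log2 ratio of -1.17. Relative to the median gene, 4 were at least 2-fold lower (16.5% of all genes), 1 was at least 2-fold higher (10.4% of all genes) and the median was -0.88. Their sum was 128 FPKM in Hb9 MNs and 62.5 FPKM in A2 SMA MNs, 2.05-fold lower. Of the 7 lower, Col24a1 and Col27a1 passed the filter only through Hb9 MNs. Col5a3, the 1 higher, passed only through A2 SMA MNs.

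Type I collagen, the main fibril of skin, bone and tendon, was present at a modest level with its chains close to equal. Col1a1 was at 18.9 FPKM in Hb9 MNs and 9.41 FPKM in A2 MNs (log2 ratio -1.01), and Col1a2 at 20.1 and 8.93 FPKM (-1.17), a ratio between them of 0.942 and 1.05. Col3a1, which forms fibrils with type I in elastic tissues, was at 15.9 and 6.57 FPKM (-1.27). The most abundant fibrillar chain was Col2a1, the collagen of cartilage and of the notochord sheath, at 34.0 and 20.5 FPKM (-0.73). Of the 6 cartilage markers found among the genes, 3 passed the filter. Of these, 1 was at least 2-fold lower (22.4% of all genes) and 1 higher (6.83% of all genes). The sum over the list was 24.5 against 8.08 FPKM. One gene, Lect1, carried that sum, and without it the list stood at 6.60 against 7.59 FPKM.

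The minor fibrillar chains, types V and XI, which set the diameter of fibrils, differed more widely among themselves. Col5a2 was at 11.9 FPKM in Hb9 MNs and 2.34 FPKM in A2 SMA MNs (log2 ratio -2.35), the lowest ratio among the fibrillar chains. Its partner chain Col5a1 was at 16.4 and 9.27 FPKM (-0.82), so the ratio of Col5a1 to Col5a2 was 1.38 in Hb9 control MNs and 3.97 in A2 SMA MNs. Col5a3 was the only fibrillar chain that was higher, at 0.636 and 1.32 FPKM (1.05). Col11a1 was at 4.56 and 1.73 FPKM (-1.40) and Col11a2 at 2.13 and 1.10 FPKM (-0.95). The fibrillar chains Col24a1 and Col27a1 were at 1.18 and 0.438 FPKM (-1.43) and at 2.26 and 0.881 FPKM (-1.36).

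**Figure D3:**
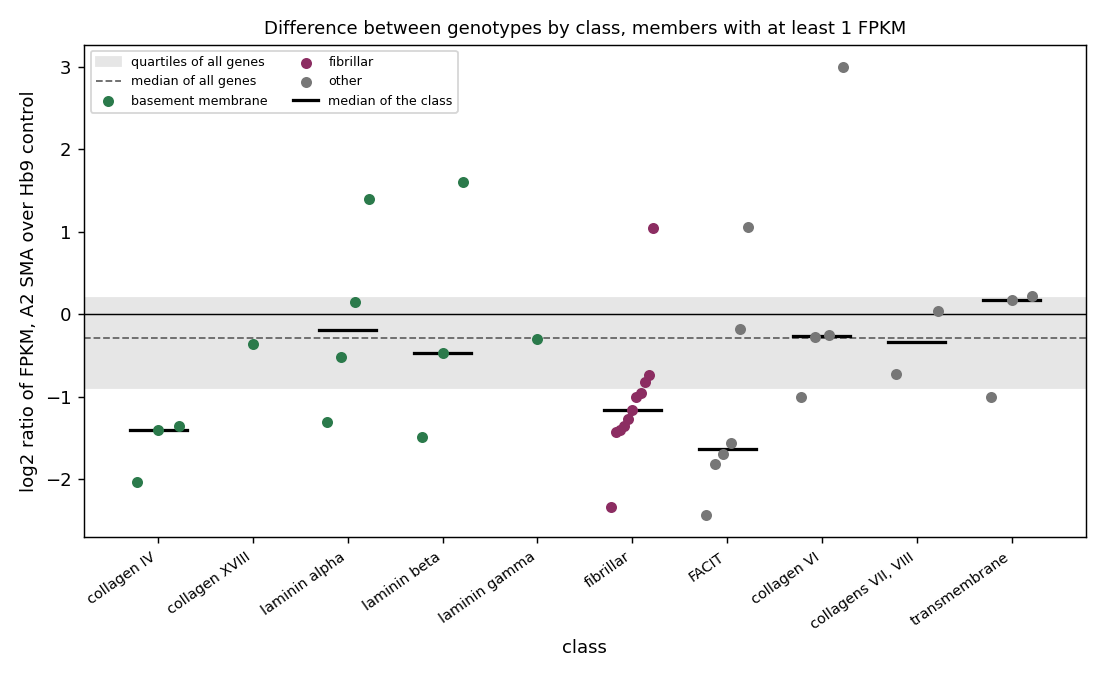
Log2 ratio of FPKM in A2 SMA MNs over Hb9 control MNs for 38 of the 39 members that passed the filter, with 1 point per gene by class, a black line at the median of each class with more than 1 gene, and the median (dashed) and quartiles (grey band) of 14926 genes. Of the 11 fibrillar chains 10 lie below 0, as do 65.9% of all genes, whereas the laminin chains spread from -1.49 to 1.61.

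Set side by side, the fibrillar collagens were lower than the basement membrane chains relative to their own level in Hb9 control MNs. The 13 basement membrane members that passed the filter had a median log2 ratio of -0.47 and the 11 fibrillar members one of -1.17, a difference of 0.69. Of the basement membrane members 5 were at least 2-fold lower (22.4% of all genes) and 2 at least 2-fold higher (6.83% of all genes), with a median of -0.18 relative to the median gene. Of the 2 higher, Lamb3 passed the filter only through A2 SMA MNs. The difference between the classes was smaller among abundant members. Over members with at least 5 FPKM in either genotype it was 0.20, with a median of -0.89 for basement membrane chains and -1.09 for fibrillar chains. A limit of 10 FPKM, chosen after the values were seen, gave the same medians over 8 basement membrane and 6 fibrillar chains. Most of the difference of 0.69 therefore depended on members under 5 FPKM in both genotypes. In sums the log2 ratio was -0.70 for the basement membrane chains and -1.03 for the fibrillar ones, and collagen IV (-1.40) was further down than the fibrillar sum. The values of the classes overlapped. Collagen IV, Lama1 and Lamb2 lay among the fibrillar chains, and the other laminins near or above the median gene. Genes of a class are not replicates of a genotype, so no test was made of this difference.

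Among the 24 other collagens 15 passed the filter, of which 6 were at least 2-fold lower (22.4% of all genes) and 2 at least 2-fold higher (6.83% of all genes). Their median log2 ratio was -0.28, near that of all genes (-0.29). Of the 6 lower, Col12a1 and Col20a1 passed only through Hb9 MNs, and of the 2 higher Col6a5 passed only through A2 SMA MNs. Of the 6 FACIT collagens that passed, 4 were at least 2-fold lower (22.4% of all genes) and 1 at least 2-fold higher (6.83% of all genes). Col12a1, which coats type I fibrils, was at 4.21 FPKM in Hb9 MNs and 0.778 FPKM in A2 SMA MNs (log2 ratio -2.44), the lowest ratio of the 39 members. Col22a1, known from the myotendinous junction, was at 16.0 and 4.56 FPKM (-1.82), and Col20a1 at 2.52 and 0.778 FPKM (-1.70). Col16a1 was at 2.71 and 2.40 FPKM (-0.18), a difference that becomes 0.11 relative to the median gene and so changes sign with the scaling.

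The chains of type IX collagen, the FACIT of cartilage, differed in opposite directions. Col9a2 was at 6.66 FPKM in Hb9 MNs and 13.8 FPKM in A2 SMA MNs (log2 ratio 1.05), whereas Col9a3 was at 6.94 and 2.35 FPKM (-1.56). The ratio of Col9a2 to Col9a3 was 0.958 in Hb9 control MNs and 5.89 in A2 SMA MNs, the widest difference between genotypes among the chain pairs compared. Col9a1, the chain that completes the trimer, was at 0.244 and 0.305 FPKM, under the filter in both genotypes.

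Collagen VI, which forms beaded filaments around cells, had its common chains near the median gene. Col6a1 was at 4.31 FPKM in Hb9 MNs and 3.60 FPKM in A2 MNs (log2 ratio -0.26) and Col6a2 at 3.80 and 3.13 FPKM (-0.28). Relative to the median gene both ratios change sign, to 0.032 and 0.012. Their ratio to each other was 1.13 and 1.15. Col6a3, the long chain that joins them, was at 2.53 and 1.25 FPKM (-1.01), and Col6a1 to Col6a3 was 1.70 and 2.87. Col6a5 had the highest ratio of the 39 members, at 0.184 and 1.47 FPKM (log2 ratio 3.00), a level near the filter. Col6a4, beside it on chromosome 9, was at 0.755 and 0.876 FPKM and Col6a6, on its other side, at 0.196 and 0.0690 FPKM.

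The remaining collagens were low. Col7a1, the anchoring fibril of skin, was at 3.53 FPKM in Hb9 MNs and 2.13 FPKM in A2 SMA MNs (log2 ratio -0.73), in an entry that also holds Mir711. Col8a2, of the short-chain network collagens, was at 1.95 and 2.004 FPKM (0.04). Of the transmembrane collagens, Col13a1, known from the neuromuscular junction, was at 2.56 and 2.87 FPKM (0.17), Col17a1, of the hemidesmosome, at 1.02 and 1.19 FPKM (0.22), and Col23a1 at 2.10 and 1.05 FPKM (-1.004). The last lies just inside the 2-fold limit, with Col1a1 and Col6a3, while Col11a2 (-0.95) lies just outside it. On the higher side Col5a3 and Col9a2 (both 1.05) lie just inside the limit.

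Several members are neighbours in the genome, and some neighbours had similar ratios while others did not. With no other entry between them, Col4a1 and Col4a2 differed by 0.05 in their log2 ratios and Col4a5 and Col4a6 by 0.18, Col4a6 being under the filter. The adjacent genes Col6a1 and Col6a2 differed by 0.02. Col3a1 and Col5a2, 24614 bp apart on chromosome 1, differed by 1.07. Col6a5 differed by 4.50 from Col6a6 and by 2.79 from Col6a4, both of which were under the filter. Among neighbours that were both under the filter, Col4a3 and Col4a4 differed by 1.39 and Col9a1 and Col19a1 by 0.92. These gaps are distances between the loci of the table on NCBI m37.

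The list of enzymes and chaperones that fold collagen held abundant genes. Its share of genes at least 2-fold lower in A2 SMA MNs was near that of all genes. Of 22 measured genes of folding and modification, 4 were at least 2-fold lower (22.4% of all genes) and none at least 2-fold higher (6.83% of all genes), with a median log2 ratio of -0.55. By any amount 18 were lower, where 65.9% of all genes were. Relative to the median gene 4 were at least 2-fold lower (16.5% of all genes) and 1 higher (10.4% of all genes), with a median of -0.26. P4hb, the beta subunit of prolyl 4-hydroxylase, was at 629 FPKM in Hb9 MNs and 407 FPKM in A2 SMA MNs. Serpinh1, the collagen chaperone Hsp47, was at 392 and 234 FPKM, and Ppib, a prolyl isomerase, at 306 and 201 FPKM. The lowest ratio was that of P4ha3, an alpha subunit of prolyl 4-hydroxylase, at 12.02 and 1.04 FPKM (-3.53), and Crtap, of the prolyl 3-hydroxylase complex, had the highest ratio, at 15.3 and 27.4 FPKM (0.85).

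Genes of procollagen processing and crosslinking were lower by any amount in 8 of 11 cases, where 65.9% of all genes were. Their median log2 ratio was -0.93, or -0.52 with entries marked FAIL left out. At least 2-fold lower were 5 (22.4% of all genes) and higher 2 (6.83% of all genes), and relative to the median gene 4 were lower (16.5% of all genes) and 2 higher (10.4% of all genes). Each of the 5 either had an entry marked FAIL or was under 1 FPKM in A2 SMA MNs and passed only through Hb9 MNs. Nothing is read from this count. Loxl2, a lysyl oxidase that crosslinks collagen IV, was at 110.8 and 46.0 FPKM, Pxdn, which makes the sulfilimine crosslinks of collagen IV, at 73.1 and 29.7 FPKM, and Loxl3 at 69.3 and 43.7 FPKM. Adamts2, which removes the N-terminal propeptide of fibrillar collagens, was at 5.84 and 0.560 FPKM (-3.38). Pcolce2, an enhancer of C-terminal processing, was at 1.22 and 4.26 FPKM (1.81). The log2 ratios of Loxl2 (-1.27) and Pxdn (-1.30) were near those of Col4a1 (-1.40) and Col4a2 (-1.36). Among the genes named from this list and the lists below, Loxl2, Pxdn, Hspg2, Fn1, Dag1 and Ddr1 have entries marked FAIL. Loxl3 and Mmp11 share their entries with another symbol. Some unnamed genes of these lists have such entries too.

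The other parts of the basement membrane had a median log2 ratio of -0.85 over 15 genes, with 6 at least 2-fold lower (22.4% of all genes) and none at least 2-fold higher (6.83% of all genes). Relative to the median gene 4 of the 15 were at least 2-fold lower (16.5% of all genes). Sparc, a collagen-binding protein, was at 688 FPKM in Hb9 MNs and 340.0 FPKM in A2 MNs (-1.02), and Agrn, the heparan sulfate proteoglycan that MNs release to cluster acetylcholine receptors, at 198 and 110.1 FPKM (-0.85). Nid2, a nidogen linking laminin to collagen IV, had the highest ratio of the list, at 64.3 and 100.2 FPKM (0.64), and Ntn4, a netrin that binds laminin gamma chains, the lowest, at 12.2 and 1.02 FPKM (-3.58). Named after their values were seen, the second nidogen Nid1 was at 30.7 and 23.5 FPKM and perlecan, Hspg2, at 56.2 and 54.8 FPKM.

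Genes of the fibrillar matrix other than collagens had a median log2 ratio of -1.24 over 14 genes, with 8 at least 2-fold lower (22.4% of all genes) and 1 at least 2-fold higher (6.83% of all genes). Relative to the median gene 6 were at least 2-fold lower (16.5% of all genes) and 2 higher (10.4% of all genes). Several of the 8 called lower without scaling, Postn among them, were under 1 FPKM in A2 SMA MNs and passed only through Hb9 MNs. The sum over the list was 234 against 192 FPKM, a log2 ratio of -0.28, near the median gene. With 1 FPKM added to both genotypes the median of the list was -0.74. Mfap2, a microfibril protein, was at 71.1 FPKM in Hb9 MNs and 16.7 FPKM in A2 SMA MNs, Fbln2 at 40.3 and 8.23 FPKM, and Postn at 1.88 and 0.326 FPKM (-2.53). Against this direction Fn1, encoding fibronectin, was at 74.5 and 138 FPKM (0.89), and Mfap5 at 1.56 and 4.33 FPKM (1.47). Of 13 measured proteases and inhibitors of matrix degradation, 9 were at least 2-fold lower (22.4% of all genes) and none at least 2-fold higher (6.83% of all genes), with a median of -1.06. Relative to the median gene 6 of the 13 were at least 2-fold lower (16.5% of all genes). Some of the 9 called lower without scaling, Mmp24 among them, were under 1 FPKM in A2 SMA MNs and passed only through Hb9 MNs. Others of the 9 have entries marked FAIL. Mmp14, a membrane-bound collagenase, was at 43.9 and 21.1 FPKM, Mmp11 at 36.1 and 28.0 FPKM, and Timp3, a matrix-bound inhibitor, at 53.4 and 8.78 FPKM. Mmp24 had the lowest ratio (6.19 and 0.606 FPKM) and Timp1 the highest (12.9 and 16.7 FPKM).

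Receptors for collagen and laminin went both ways. Their list summed to 646 against 554 FPKM, lower in A2 SMA MNs. Of 11 measured genes, however, 7 were higher and 4 lower by any amount, where 65.9% of all genes were lower. At least 2-fold higher was 1 (6.83% of all genes) and at least 2-fold lower 1 (22.4% of all genes), with a median log2 ratio of 0.59. Relative to the median gene 2 were at least 2-fold higher (10.4% of all genes) and 1 lower (16.5% of all genes), with a median of 0.88. Itgb1, the beta subunit of most matrix integrins, was at 198 FPKM in Hb9 MNs and 130 FPKM in A2 SMA MNs, Itga6, a laminin-binding subunit, at 108 and 98.5 FPKM, and Dag1, dystroglycan, at 83.8 and 101 FPKM. Itga7 was at 1.68 and 4.43 FPKM (1.40). The collagen receptor kinase Ddr1 had the lowest ratio, at 97.2 and 22.04 FPKM (-2.14). Of the 11 measured genes, 3 have entries marked FAIL and 2 share their entries with other symbols. The positive median did not hold when genes under 1 FPKM were included, where it was -0.13.

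**Figure D4:**
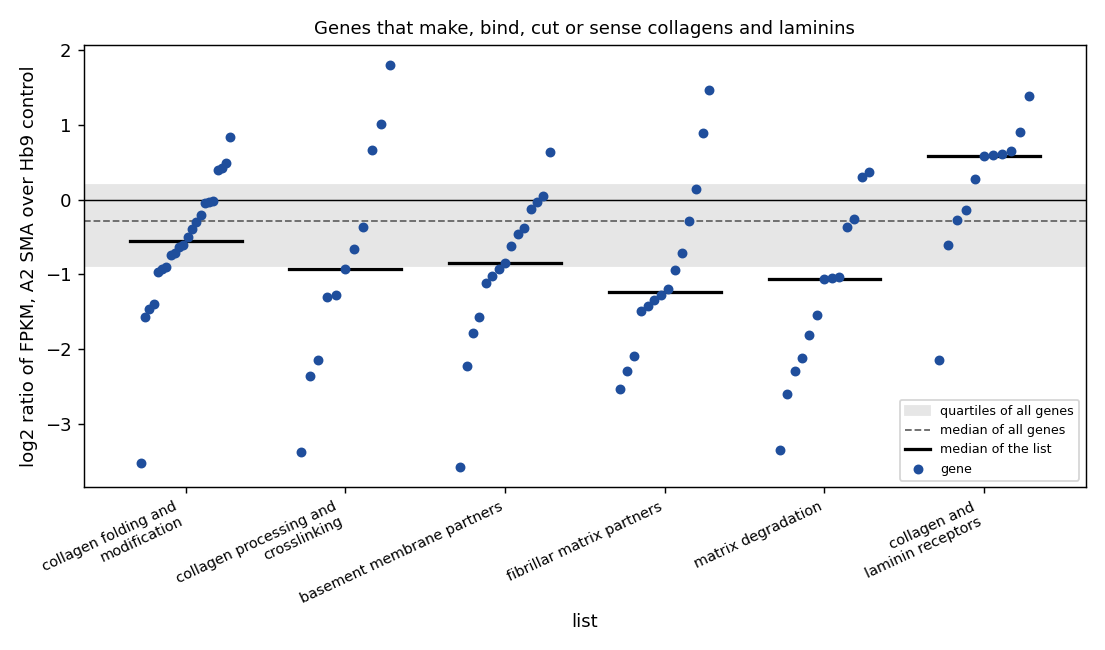
Log2 ratio of FPKM in A2 SMA MNs over Hb9 control MNs for genes that fold, process, bind, degrade or sense collagens and laminins, with 1 point per gene, a black line at the median of each list and the median (dashed) and quartiles (grey band) of 14926 genes. The list medians lie between -1.24 and -0.55, except for the receptors at 0.59.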

How the data were processed

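RNA from FACS-purified MNs (3 samples per genotype, TruSeq libraries, single-end reads) was processed by the study's authors with FastQC 0.10.1, CutAdapt, TopHat 2.04 (NCBI m37, Ensembl annotation), Cufflinks and Cuffdiff. The deposited table gives FPKM per gene and genotype, computed by the authors from the 3 samples together. Neither the number of reads behind a value nor its replicate error is known, although the study lists total reads per sample. Its columns of fold changes, test statistics, p-values, q-values and significance were not used. The status column served as a flag.

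Ratios were computed in Python 3.11.15 (pandas 2.3.3, numpy 2.4.6) and figures drawn with matplotlib 3.10.9. Log2 ratios carried no pseudocount. Genes passed with at least 1 FPKM in either genotype and above 0 in both. The ratio and count steps were tested on simulated data. All members that passed are named except 1 that is not reported here, and of each other list the 3 most abundant genes and those with the largest rise and fall may be. The members, lists and rules were chosen with earlier results of these data known. Alternatives covered pseudocounts, filters, scaling, shared entries, status, fold limits and narrower classes.

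Promoters are from RefSeq (GRCm38.p6), where 40 of 54 members matched, too few for a check over the set. Coding sequences are from GENCODE M21. Loci are given as in the table.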

Additional observations from a re-analysis of the deposited data

How the results depend on the processing

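Of 132 values recomputed for summaries under the alternatives, 124 kept their direction and stayed within 1.5-fold of the value reported. That limit is wide beside many of the values. A fall of the difference between the class medians from 0.69 to 0.20 stayed within it. Scaling cannot change a difference between classes, so part of the tally was fixed in advance and nothing is read from it. At a filter of 5 FPKM 11 of 19 members were at least 2-fold lower (20% of all genes passing it) and 2 higher (4.81%). At 10 FPKM, chosen after seeing the data, 9 of 16 were lower (18.5%) and 1 higher (4.2%). At a limit of 4-fold 3 of 39 were lower (8.88%) and 1 higher (1.8%). With 1 FPKM added 12 of 39 were lower (17.2%) and 2 higher (4.28%), against 18 and 5 of 39 without. The median log2 ratio of the receptors was -0.13 with no minimum FPKM, a setting that adds only genes under 1 FPKM in both genotypes. Of 117 values for single members, 6 changed sign. Scaling to the median gene (a shift of -0.29) put Col16a1 at 0.114, Col6a1 at 0.032 and Col6a2 at 0.012, and upper quartile scaling put them at 0.112, 0.030 and 0.010. The difference between basement membrane and fibrillar medians ranged from 0.20 to 0.75 over 12 alternatives. It was 0.20 at the filter of 5 FPKM as well as at that of 10 FPKM. No paired analysis was possible because the table holds 1 value per genotype, and for the same reason no sample could be left out. The unknown number of reads behind a value limits most the members near 1 FPKM.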
